A study of Homo sapiens with 54 samples.

Results

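Low-dose cisplatin (CDDP) alone was examined in parental MDA-MB-468 cells, by comparing the 3 libraries of cells treated with 1 µM CDDP with the 3 libraries of untreated cells. These 6 libraries were taken by their labels from the 54 of the series, and no measured value was used to choose them. MDA-MB-468 is a triple negative breast cancer (TNBC) line with wild type BRCA1. The series measured this line and the BRCA1 mutant TNBC line SUM1315 by sequencing the 3′ ends of transcripts, in parental cells given CDDP, the PARP inhibitor olaparib or both, and in cells grown resistant to olaparib (OlaR). In MDA-MB-468 the other groups used here, with 3 libraries each, were 2.5 µM CDDP, 3 µM olaparib, 3 µM olaparib with 1 µM CDDP, OlaR cells, and OlaR cells with 1 µM CDDP. OlaR cells were kept in 15 µM olaparib, so both of their groups carried the inhibitor, while neither group of the main comparison did. Treatment was overnight. The labels name a group and a replicate but not whether the 3 libraries came from separate cultures. P-values therefore measure only the spread between libraries of a group, pooled over the 9 groups of the line. The remaining groups, olaparib with 2.5 µM CDDP and OlaR cells with 2.5 µM CDDP, entered only through that spread and the filter on low values.

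CDDP is a platinum drug that binds purine bases and links them within a DNA strand or across strands. Crosslinks within a strand are removed by nucleotide excision repair, and those across strands by the Fanconi anemia pathway with homologous recombination. Unrepaired links stall replication forks and RNA polymerases and switch on the ATR checkpoint. E2F factors drive the genes of DNA synthesis, ATF4 drives the integrated stress response (ISR), and AP-1 factors and their partners drive the early response genes. A separate set of genes encodes small non-coding RNAs. H/ACA small nucleolar RNAs (SNORA) guide pseudouridylation of ribosomal RNA, box C/D small nucleolar RNAs (SNORD) guide ribose methylation, and small Cajal body RNAs (SCARNA) guide both modifications on spliceosomal RNA. Most are cut from introns of host genes.

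The 6 libraries held 5574767 to 7568367 reads. Before deposit, each library was scaled by the authors to a common size of 5585170 reads, and the resulting adjusted read counts per gene are the values used here. Of 27470 genes in the table, 13012 had at least 10 adjusted read counts in at least 3 of the 27 MDA-MB-468 libraries and were tested with limma on log2 of the adjusted read count plus 1. Fold changes are on that scale and understate the change of genes with few reads. A differentially expressed gene (DEG) had an adjusted p of at most 0.05 and a log2 fold change of 1 or more in either direction. Libraries of a group were more alike (Pearson r over genes 0.9755 to 0.9807) than libraries of different groups (0.968 to 0.9719). The 20 marker genes of basal epithelial lines summed to 30032 to 30752 in untreated and 27971 to 28399 in treated libraries, and each was above 0 in at least 1 library of both groups, KRT6A in only 1 of the 3. Markers of immune and endothelial cells, 14 genes, summed to at most 38 in any of the 6 libraries, and PTPRC, which marks leukocytes, was listed at 0 in every untreated library. Of the hormone receptor markers, PGR was listed at 0 in the untreated libraries.

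With 1 µM CDDP, 147 genes were higher and 91 were lower as DEGs, which is 1.13% and 0.699% of the genes tested. Small non-coding RNA genes were 65 of the 147 higher DEGs and none of the lower ones. When they were left out of the fit, 82 genes were higher and 90 lower, so the share of higher DEGs went from 61.8% to 47.7%. Of 49 E2F and S phase genes, 35 passed the adjusted p upwards, and of 49 genes of homologous recombination and the Fanconi anemia pathway 23 did. Of 27 ISR genes 17 passed it downwards, and so did 17 of 32 AP-1 and immediate early genes. Without the limit on the fold change, 1374 genes were higher (10.6%) and 1224 lower (9.41%). The libraries of the groups did not overlap for 2187 genes that were higher (16.8%) and 2264 that were lower (17.4%), and for 224 of the 238 DEGs.

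**Figure D1:**
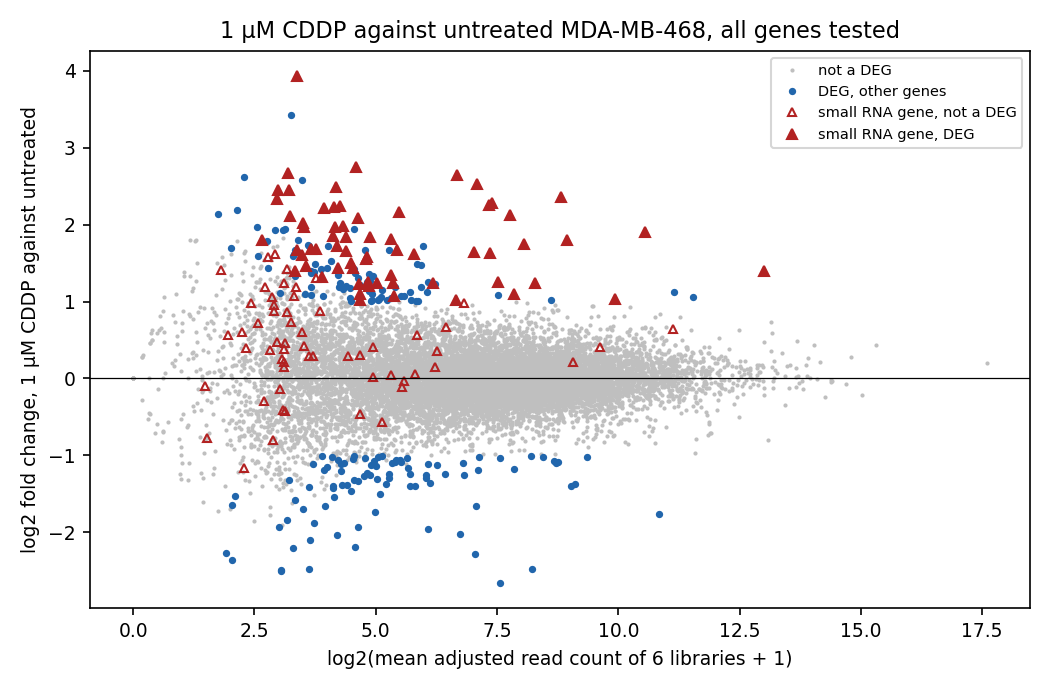
Log2 fold change of 1 µM CDDP against untreated cells (vertical axis) by log2 of the mean adjusted read count of the 6 libraries plus 1 (horizontal axis), for all 13012 genes tested. Triangles are small non-coding RNA genes, filled where they are DEGs, and blue points are the other DEGs. All 65 small RNA DEGs lie above 0.

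The small RNA genes were grouped after their values had been seen, so their counts are a description. Of 122 tested, 110 had a positive log2 fold change, 65 were DEGs, 68 passed the adjusted p upwards and none passed it downwards, while 54 did not pass. Over all genes tested, 1.13% were higher and 0.699% lower DEGs, and 10.6% passed upwards and 9.41% downwards. The median log2 fold change of the small RNA genes was 1.24, against -0.01 over all genes tested. The library kit starts cDNA with an oligo-dT primer, and the mature forms of most of these RNAs carry no poly(A) tail, so the values count the molecules that the primer reached and are not the total level of each RNA.

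Sequences from RefSeq (GRCh38.p14) are shown for 6 of the small RNAs that rose and for SNORD57, which did not pass and shares a host gene with SNORA51. Of the tested SNORA genes, 39 matched a gene of the GENCODE annotation at their RefSeq position, from which the strand was taken. An H/ACA RNA folds into hairpins and ends in an ACA box, which stood 3 bases before the 3′ end in 35 of those 39 genes, in 11 of 16 SCARNA genes and in 0 of 26 SNORD genes. A box C/D RNA has a C box near its 5′ end and a D box (CTGA) near its 3′ end, and CTGA was within the last 20 bases of 24 of 26 SNORD genes and of 3 of 39 SNORA genes. Capitals mark the ACA box in the first 6 sequences. In SNORD57 they mark the TGATGA of box C and the CTGA of box D.
SNORA27: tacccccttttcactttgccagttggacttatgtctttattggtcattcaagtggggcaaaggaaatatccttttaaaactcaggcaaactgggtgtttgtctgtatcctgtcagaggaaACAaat
SNORA19: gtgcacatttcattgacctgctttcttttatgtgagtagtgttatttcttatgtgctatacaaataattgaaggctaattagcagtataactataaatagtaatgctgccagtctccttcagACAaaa
SNORA12: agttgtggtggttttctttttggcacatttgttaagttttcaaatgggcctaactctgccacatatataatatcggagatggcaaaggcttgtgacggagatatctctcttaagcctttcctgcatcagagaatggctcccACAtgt
SCARNA18: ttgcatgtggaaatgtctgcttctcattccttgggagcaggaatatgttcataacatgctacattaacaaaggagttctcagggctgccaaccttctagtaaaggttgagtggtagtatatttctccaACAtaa
SCARNA22: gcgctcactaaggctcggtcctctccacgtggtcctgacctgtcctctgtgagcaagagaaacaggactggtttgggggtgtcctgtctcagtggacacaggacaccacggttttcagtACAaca
SNORA51: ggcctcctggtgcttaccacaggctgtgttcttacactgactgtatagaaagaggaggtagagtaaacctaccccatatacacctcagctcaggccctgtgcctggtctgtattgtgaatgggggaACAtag
SNORD57: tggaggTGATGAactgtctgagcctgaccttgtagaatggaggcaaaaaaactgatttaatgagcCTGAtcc
SNORA27 lies at chr13:27255401-27255526 on the plus strand, within the gene of the ribosomal protein RPL21. SNORA19 is at chr10:119060011-119060138 on the minus strand, within the translation initiation factor gene EIF3A. SNORA12 is at chr10:100237156-100237302 on the minus strand, within CWF19L1. SCARNA18 is at chr5:83064204-83064337 on the minus strand, within TMEM167A. SCARNA22 is at chr4:1974636-1974760 on the plus strand, within the histone methyltransferase gene NSD2, and its RefSeq entry ends in ACA after the box that is marked. SNORA51 (chr20:2655067-2655198) and SNORD57 (chr20:2656939-2657010) are both on the plus strand within NOP56, which encodes a core protein of box C/D particles. The longest run of A was 4 bases in SNORA27 and SNORA19, 3 in SNORA12, SCARNA18, SCARNA22 and SNORA51, and 7 in SNORD57.

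The classes differed in how many members were DEGs. Over all genes tested, 1.13% were higher and 0.699% lower DEGs. Of 41 H/ACA genes tested, 32 were DEGs and all 32 were higher, with a median log2 fold change of 1.67 over the 41. Of 19 SCARNA genes, 12 were higher DEGs (median 1.69). Of 38 box C/D genes, 9 were higher DEGs, 2 more passed the adjusted p upwards and 27 did not pass (median 0.58). Of 7 spliceosomal and U7 RNA genes, 6 were higher DEGs (median 1.23), and so were 6 of 11 genes of the 7SL, 7SK, Y, vault, RNase and telomerase RNAs (median 1.07).

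Summed over the H/ACA genes, untreated libraries held 807, 830 and 895 adjusted read counts and libraries with 1 µM CDDP held 3055, 3202 and 3568. The SCARNA genes summed to 884, 820 and 835 without CDDP and to 2676, 3096 and 3209 with it, and most of each sum was SCARNA22. The box C/D genes summed to 3661, 3803 and 3621 without CDDP and to 5358, 6182 and 6972 with it. Treated libraries lay above untreated ones in each of these sums.

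SNORA27 had 33.4, 53.5 and 32.1 adjusted read counts in untreated libraries and 219, 194 and 276 with 1 µM CDDP, a log2 fold change of 2.53 ± 0.20 (SE, adjusted p = 3.0e-14). SNORA79 had 134, 166 and 140 without CDDP and 745, 731 and 783 with it (2.36 ± 0.15, adjusted p = 5.6e-18). SNORA19 rose from 57.3, 54.1 and 52.4 to 250.1, 229 and 319.7 (2.25 ± 0.15, adjusted p = 1.4e-17). In all 3 the lowest treated library was far above the highest untreated one. SNORA63, SNORA11F, SNORA25 and SNORA12 rose by 2.12 to 2.75 on the log2 scale. SNORA79 and SNORA11F belong to families with near-identical copies, among which reads may be split, so the value of a single copy is uncertain.

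SCARNA22, a Cajal body RNA of the H/ACA kind, had 676, 606 and 616 adjusted read counts in untreated libraries and 2134, 2455 and 2511 in treated ones (1.90 ± 0.08, adjusted p = 1.2e-24). SCARNA18 went from 17.6, 36.7 and 29.4 to 136, 191 and 197 (2.65 ± 0.25, adjusted p = 6.6e-12), and its near copy SCARNA18B rose by 2.09. SCARNA23 had 0, 1 and 0 reads without CDDP and 31, 23 and 12 with it, which is too few in the untreated libraries for a fold.

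TERC, the RNA template of telomerase, which is also an H/ACA RNA, had 230.4, 227 and 195 adjusted read counts without CDDP and 704, 759 and 813 with it (1.8 ± 0.11, adjusted p = 1.6e-18). RNU4ATAC, a component of the minor spliceosome, was the most abundant DEG, with 4610, 4564 and 4285 without CDDP and 10324, 11949 and 13173 with it (1.39 ± 0.07, adjusted p = 9.4e-21). Its minor spliceosome partner RNU11 rose by 1.5. Among RNAs made by RNA polymerase III, RN7SL1 of the signal recognition particle rose by 1.65, RPPH1, the RNA of ribonuclease P, by 1.24 and RNY1, a Y RNA, by 1.10. RN7SL1 has near-identical copies and its value is uncertain. RN7SK (1.07 ± 0.47, adjusted p = 0.10) and RMRP (0.42 ± 0.51, adjusted p = 0.63) did not pass.

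The host genes of these small RNAs are given beside them. Of the 65 small RNA DEGs, 60 matched a GENCODE gene at their RefSeq position, and hosts were sought for these only, in GENCODE. Of the 60, 43 lay within a tested host, which made 38 distinct hosts. None of the 38 was a DEG, and at the shares over all genes tested (1.13% higher and 0.699% lower) a list of this size would hold few or none. By adjusted p, where 10.6% of all genes passed upwards and 9.41% downwards, PHB2, POLA1 and RPL23 passed upwards and CHD3, EIF3A, CCNB1IP1 and SNHG1 downwards. Their log2 fold changes ran from -0.36 to 0.30 with a median of 0.04. RPL21, the host of SNORA27, changed by -0.35 (adjusted p = 0.069). EIF3A, the host of SNORA19, fell by 0.18 (adjusted p = 0.031), and NSD2, the host of SCARNA22, changed by 0.09 (adjusted p = 0.43). A pair in NOP56 and a pair in RPS3 were picked after their values were seen. SNORA51 had 1.78, 2.67 and 7.04 adjusted read counts without CDDP and 13.9, 17.3 and 19.2 with it (2.02 ± 0.56, adjusted p = 0.0061). SNORD57 of the same host had 52.1, 57.3 and 50.9 without CDDP and 48.0, 53.8 and 66.3 with it (0.06 ± 0.29, adjusted p = 0.93), and NOP56 itself changed by 0.08 (adjusted p = 0.41). In RPS3 (-0.02, adjusted p = 0.86), SNORD15A had 2, 0 and 6 reads without CDDP and 20, 16 and 14 with it. It passed (2.67, adjusted p = 0.00058), but its untreated reads are too few for a precise fold. SNORD15B changed by 0.29 (adjusted p = 0.73).

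**Figure D2:**
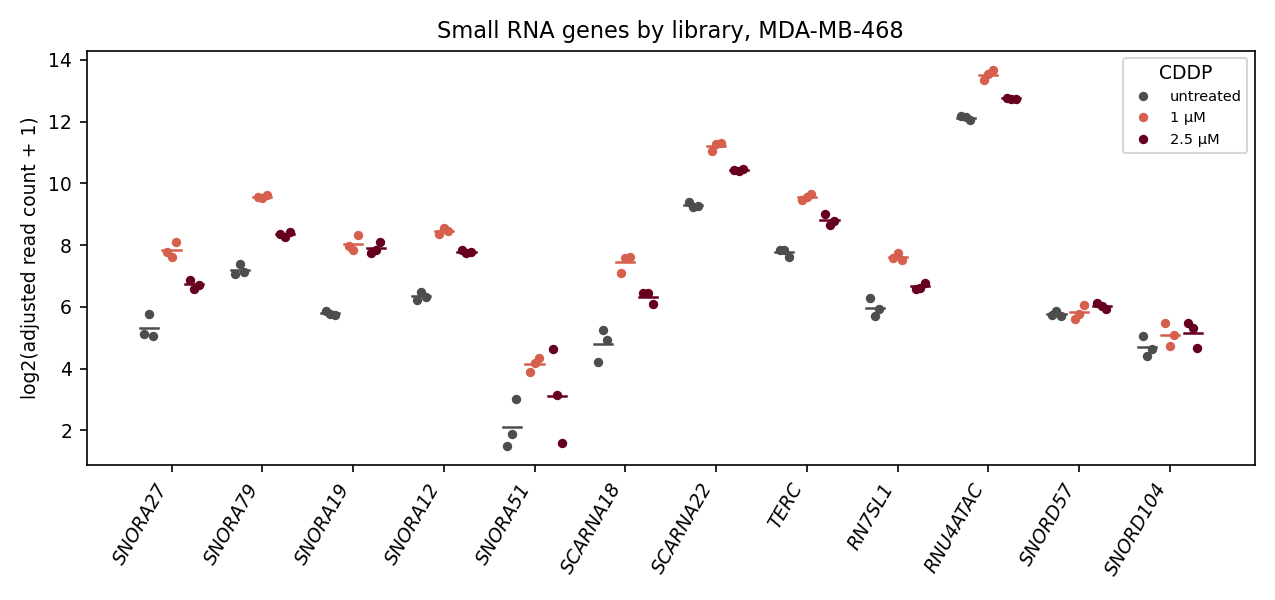
Log2 of the adjusted read count plus 1 (vertical axis) of 12 small RNA genes in each MDA-MB-468 library, untreated (grey), 1 µM CDDP (red) and 2.5 µM CDDP (dark red), with 3 libraries each and a bar at their mean. The 1 µM libraries lie above the untreated ones in the first 10 genes, while the groups overlap in SNORD57 and SNORD104.

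The sums of the H/ACA and SCARNA genes were closer to the untreated level at 2.5 µM CDDP than at 1 µM, though by adjusted p only 9 of the 41 H/ACA and 3 of the 19 SCARNA genes were lower at 2.5 µM than at 1 µM. The H/ACA sum was 1928, 1847 and 1946 at 2.5 µM, and the SCARNA sum, most of it SCARNA22, was 1745, 1700 and 1701, in every library between those of the untreated and the 1 µM groups. The box C/D sum, at 5480, 5563 and 4699, overlapped with the 1 µM group. Of 122 small RNA genes, 22 were lower at 2.5 µM than at 1 µM by adjusted p and none was higher, where over all genes tested 435 were lower (3.34%) and 471 higher (3.62%). SCARNA22 had 1384, 1342 and 1402 at 2.5 µM (-0.78 against 1 µM, adjusted p = 7.3e-10), RNU4ATAC had 6995, 6854 and 6882 (-0.77, adjusted p = 1.3e-10) and RNY1 had 133, 123 and 177 (-1.11, adjusted p = 1.5e-08). SNORA19 had 213, 231 and 276, within the spread of the 1 µM group (-0.15, adjusted p = 0.66).

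Libraries of cells in olaparib alone also had higher H/ACA sums than untreated libraries, a comparison that was not tested. Their H/ACA sum was 2366, 2468 and 2933, and with 1 µM CDDP added to olaparib it was 1640, 1773 and 1682. In OlaR cells it was 965, 920 and 954 without and 1322, 1285 and 1111 with 1 µM CDDP. The effect of 1 µM CDDP on 26 of the 41 H/ACA genes was lower with olaparib than without it by the interaction test at adjusted p, and on 14 it was lower in OlaR cells, with none higher in either, against 919 genes (7.06%) and 688 genes (5.29%) whose effect was lower over all genes tested. SCARNA22 went from 1631, 1843 and 1468 in olaparib to 1284, 1342 and 1324 with CDDP added, and from 500, 448 and 618 in OlaR cells to 769, 748 and 676.

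Beside the small RNAs, 70 protein-coding genes were higher and 79 lower DEGs, and 10 long non-coding RNA genes were higher and 8 lower of 609 tested. NDUFB7, a subunit of mitochondrial complex I, had 1448, 1417 and 1393 adjusted read counts in untreated libraries and 3111, 3071 and 3135 with 1 µM CDDP (1.13 ± 0.07, adjusted p = 1.4e-17). FSD1, a microtubule-associated protein, was the only gene outside the small RNAs among the 10 DEGs that rose most with a mean of at least 20 and no overlap, with 14.8, 9.24 and 3.74 before and 27.7, 27.8 and 51.9 after (1.95 ± 0.31, adjusted p = 4.5e-06). Other protein-coding genes with the same limits were picked after their values were seen. BIN1, a membrane-bending adaptor, went from 22.2, 39.0 and 25.2 to 105, 92.2 and 86.3 (1.72 ± 0.19), and TUBA4A, an alpha tubulin, from 18.2, 14.6 and 20 to 57.6, 51.8 and 63.5 (1.66 ± 0.21). AHNAK2, a giant scaffold protein, rose by 1.48, the fatty acid desaturase gene FADS3 by 1.43 and TAGLN, an actin-binding protein, by 1.33.

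The genes that fell most are given among those with a mean of at least 20 and no overlap between the groups. DHRS2 (chr14:23630115-23645639), a dehydrogenase, fell from 318, 325 and 328 adjusted read counts to 49.2, 43.1 and 61.1 (-2.65 ± 0.25, adjusted p = 4.6e-12) and stayed there at 2.5 µM, with 48.9, 50 and 46.7. MAOA, the mitochondrial monoamine oxidase, fell from 187, 212 and 206 to 55.5, 58.6 and 76.8 (-1.66 ± 0.26). IL22RA2, a soluble receptor for interleukin 22, fell by 1.95 on the log2 scale and CXCL17, a chemokine, by 2.19. The non-coding LINC01447 fell by 2.02, and LOC101929705, for which no annotation was matched, fell by 2.47. The fall of KRT75, a keratin, did not pass without the first 1 µM library (-1.47, adjusted p = 0.0507). Olaparib-only libraries held 115, 84.4 and 126 of DHRS2, also below untreated cells.

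Genes of DNA synthesis rose together and by small steps. Of 49 E2F and S phase genes tested, 35 passed the adjusted p upwards (71.4%), none downwards and 14 did not pass, with a median log2 fold change of 0.38. Over all genes tested, 10.6% passed upwards and 9.41% downwards. RRM2, the small subunit of ribonucleotide reductase and the only DEG of the list, had 1862, 1885 and 2029 adjusted read counts in untreated libraries and 4063, 3985 and 4032 with 1 µM CDDP (1.06 ± 0.05, adjusted p = 2.9e-22). RRM1, its large subunit, went from 1591, 1533 and 1548 to 2457, 2503 and 2476 (0.67 ± 0.06, adjusted p = 1.0e-12). Both subunits were higher in every treated library. TK1, thymidine kinase, went from 476, 478 and 505 to 931, 954 and 918 (0.94 ± 0.07, adjusted p = 3.9e-15), and POLA2, a subunit of the polymerase that primes replication, from 323, 273 and 245 to 510, 564 and 555 (0.96 ± 0.09, adjusted p = 1.0e-12). The replication helicase genes MCM5 (-0.14, adjusted p = 0.34) and MCM6 (-0.13, adjusted p = 0.25) and the histone mRNA binding gene SLBP (-0.03, adjusted p = 0.83) did not pass. HIST1H4C, a histone H4 gene, went from 10441, 11196 and 11288 to 14974, 15119 and 15841 (0.48 ± 0.06, adjusted p = 8.3e-09), the only one of 20 tested clustered histone genes to pass upwards.

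The list had been chosen as E2F genes, and its promoters hold the letters of an E2F site more often than promoters in general. The 8-base forms TTTGGCGC and TTTCCCGC were searched on both strands, from 250 bases before to 50 bases after the RefSeq start (GRCh38.p14), with the motif chosen after the fold changes were known. Of 41 list promoters matched, 21 held a match (51.2%), against 631 of 27305 promoters overall (2.31%), 397 of the 10213 that could be matched among the 13012 genes tested (3.89%), 3 of 43 G2/M promoters (6.98%), 3 of 40 of the recombination and Fanconi anemia list (7.5%) and 0 of 22 of the ISR list. A match is a description of these letters and not a bound site. The promoters of 2 risers of the list are printed from 5′ to 3′ on the strand of the gene, which is the minus strand for both, with the match in capitals. CLSPN, the claspin adaptor of the ATR checkpoint, at chr1:35769929-35770228, has the match as the reverse complement GCGGGAAA. The first base of that match is 5 bases before the start, so the match runs across the start. E2F2, an E2F factor itself, at chr1:23531184-23531483, has a match whose first base is 42 bases before its start.
CLSPN: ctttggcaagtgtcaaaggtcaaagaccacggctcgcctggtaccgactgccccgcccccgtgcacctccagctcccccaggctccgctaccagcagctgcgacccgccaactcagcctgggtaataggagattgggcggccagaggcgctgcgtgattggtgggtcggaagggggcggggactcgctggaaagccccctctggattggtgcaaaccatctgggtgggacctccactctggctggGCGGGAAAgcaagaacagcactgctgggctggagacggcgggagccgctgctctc
E2F2: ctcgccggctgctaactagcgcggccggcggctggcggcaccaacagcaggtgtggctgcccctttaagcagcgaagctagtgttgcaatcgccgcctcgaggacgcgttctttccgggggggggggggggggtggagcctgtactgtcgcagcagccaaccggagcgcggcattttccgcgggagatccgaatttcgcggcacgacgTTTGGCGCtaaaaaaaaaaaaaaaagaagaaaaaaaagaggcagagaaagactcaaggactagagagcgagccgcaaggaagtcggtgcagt
CLSPN had 687, 659 and 742 adjusted read counts without CDDP and 1291, 1086 and 1271 with it (0.80 ± 0.07, adjusted p = 1.3e-12). E2F2 averaged 275 ± 8.2 (SD, n = 3) without CDDP and 470 ± 28 with it, a log2 fold change of 0.77 by limma.

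RRM2 and TK1 rose further at the higher dose. RRM2 had 5764, 5622 and 5608 at 2.5 µM (0.49 above 1 µM, adjusted p = 1.0e-09) and TK1 had 1205, 1253 and 1275 (0.41, adjusted p = 5.5e-05). By adjusted p, 24 of the 49 genes of the list were higher at 2.5 µM than at 1 µM, with none lower. Over all genes 471 were higher (3.62%) and 435 lower (3.34%). Added to olaparib, 1 µM CDDP raised 32 of the 49 by adjusted p and lowered none, with a median log2 fold change of 0.37, where over all genes 299 rose (2.3%) and 386 fell (2.97%). In OlaR cells it raised 15 and lowered none (median 0.16), where over all genes 240 rose (1.84%) and 379 fell (2.91%). Neither of those comparisons shares a library with the main one. RRM2 stood at 3658, 3881 and 3426 in olaparib alone and at 4650, 4968 and 5106 with CDDP added.

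Of 49 genes of homologous recombination and the Fanconi anemia pathway tested, 23 passed upwards (46.9%), 2 downwards (4.08%) and 24 not, against 10.6% upwards and 9.41% downwards over all genes. The list had no DEG and a median of 0.37. FANCI, part of the clamp that is monoubiquitinated at crosslinks, had 264, 274 and 287 adjusted read counts without CDDP and 542, 501 and 493 with it (0.89 ± 0.08, adjusted p = 2.6e-12). UBE2T, the enzyme that carries ubiquitin to that clamp, went from 444, 387 and 449 to 714, 686 and 675 (0.70 ± 0.08, adjusted p = 1.7e-09). FANCG of the ligase complex rose by 0.86 and RPA2, which coats single strands, by 0.61. BRCA1 went from 315, 308 and 304 to 377, 424 and 397 (0.37 ± 0.08, adjusted p = 0.00077). FANCF (-0.66, adjusted p = 0.014) and PALB2, which joins BRCA1 to BRCA2 (-0.50, adjusted p = 0.036), fell.

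Other repair lists stood nearer to the shares over all genes tested (10.6% higher and 9.41% lower). Nucleotide excision repair had 3 of 24 tested genes higher (12.5%) and 3 lower (12.5%), among them DDB2, a sensor of bulky lesions, which rose by 0.58 (adjusted p = 0.0053). Translesion synthesis had 5 of 18 higher (27.8%) and 2 lower (11.1%), with the ubiquitin ligase RFWD3 (0.51), MAD2L2 (0.49) and the sliding clamp PCNA (0.36) higher. Base excision repair and PARP genes had 4 of 26 higher (15.4%) and 2 lower (7.69%). The glycosylase gene MPG went from 207, 200 and 148 to 392, 311 and 392 (0.98 ± 0.12, adjusted p = 1.3e-08) and PARP2 rose by 0.45. NEIL2 passed only with the third 1 µM library (0.29, adjusted p = 0.17 without it). DNA damage checkpoint genes had 6 of 29 higher (20.7%) and 4 lower (13.8%), with the fork protection gene TIMELESS (0.59) and the phosphatase CDC25A (0.63) higher and GADD45B (-0.68) lower.

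Mitotic genes were split. Of 51 G2/M genes tested, 12 were higher (23.5%), 9 lower (17.6%) and 30 did not pass. Over all genes tested, 10.6% were higher and 9.41% lower. CDK1, the mitotic kinase, went from 2211, 2182 and 1956 to 3053, 3016 and 2860 (0.49 ± 0.05, adjusted p = 6.4e-10), and the kinetochore motor CENPE from 1079, 868 and 819 to 625, 487 and 522 (-0.76 ± 0.09, adjusted p = 3.3e-09). KIF20A, a motor of cytokinesis, fell by 0.60, while KIF2C, which depolymerises microtubules, rose by 0.49. At 2.5 µM 23 of the 51 were lower than at 1 µM and 2 higher, against 3.34% lower and 3.62% higher over all genes tested. Added to olaparib, 1 µM CDDP lowered 33 and raised none, where over all genes 2.97% fell and 2.3% rose. In OlaR cells it lowered 18 and raised 1, where over all genes 2.91% fell and 1.84% rose.

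**Figure D3:**
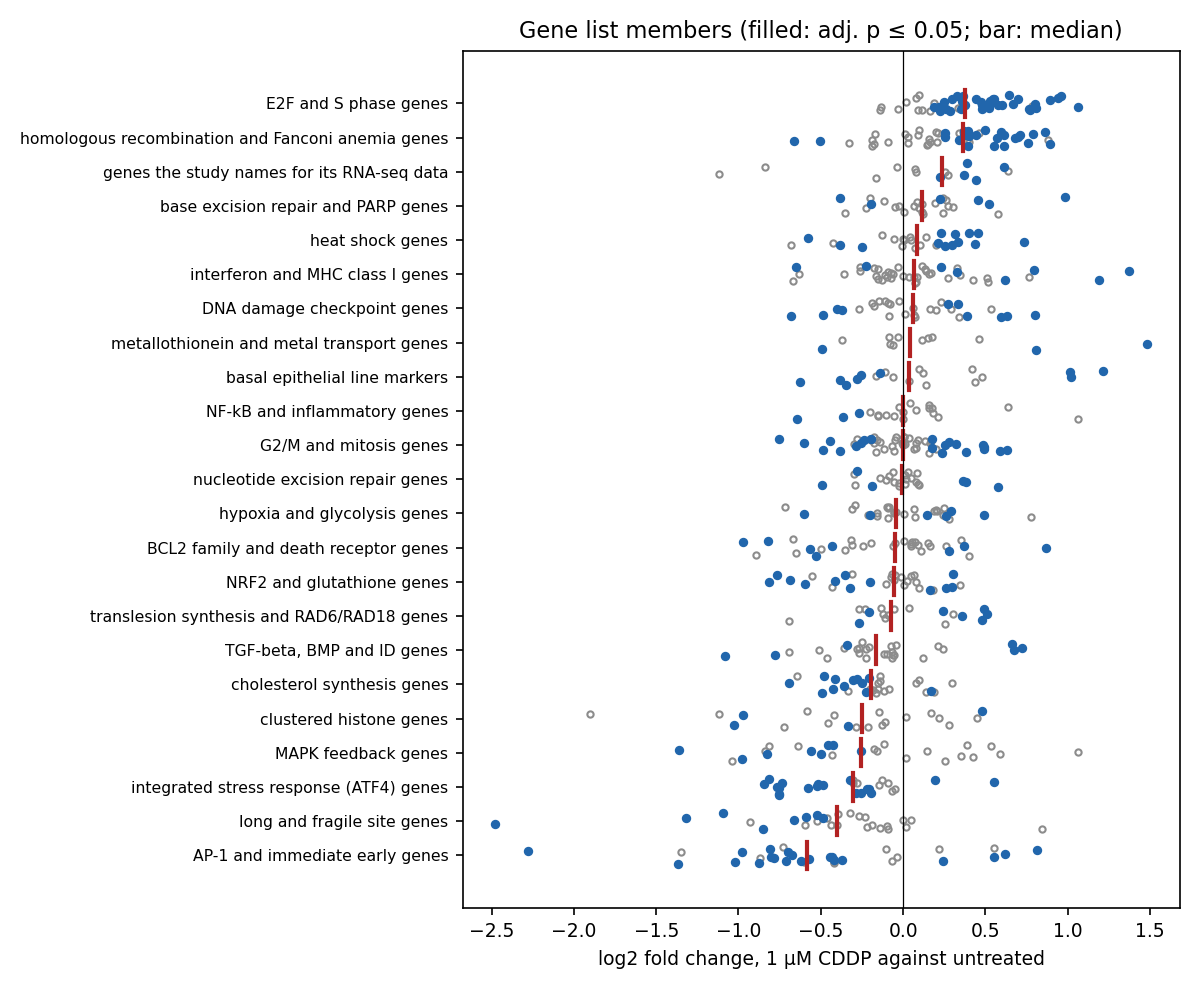
Log2 fold change of 1 µM CDDP against untreated cells (horizontal axis) for each tested member of gene lists with at least 10 tested members (vertical axis, ordered by median). Filled points have an adjusted p of at most 0.05 and bars are list medians. The medians of the E2F and S phase list (0.38) and the AP-1 list (-0.59) stand at the ends.

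Most ISR genes that passed were lower. Of 27 tested, 17 were lower (63%), 2 were higher (7.41%, ATF3 by 0.56 and MTHFD2 by 0.19) and 8 did not pass. Over all genes tested, 9.41% were lower and 10.6% higher. The list had a median log2 fold change of -0.30 and no DEG. STC2, a secreted glycoprotein of stressed cells, had 746, 859 and 868 adjusted read counts without CDDP and 462, 479 and 522 with it (-0.76 ± 0.08, adjusted p = 6.7e-10). TRIB3, a pseudokinase that feeds back on ATF4, went from 1180, 1170 and 1235 to 717, 719 and 692 (-0.75 ± 0.07, adjusted p = 1.8e-11). SLC7A5, the large neutral amino acid transporter, went from 1375, 1624 and 1501 to 752, 835 and 917 (-0.85 ± 0.10, adjusted p = 1.4e-09). Every treated library lay below every untreated one in these genes. CEBPB, a transcription factor downstream of the response, went from 4330, 4957 and 4626 to 2782, 2844 and 2734 (-0.73 ± 0.06, adjusted p = 2.2e-13), and asparagine synthetase ASNS fell by 0.75. CHAC1, which degrades glutathione, went from 347, 375 and 313 to 191, 185 and 208 (-0.82 ± 0.13, adjusted p = 4.2e-06).

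AP-1 and immediate early genes that passed were also lower for the most part. Of 32 tested, 17 were lower (53.1%), 4 higher (12.5%) and 11 did not pass, against 9.41% lower and 10.6% higher over all genes tested. The list had 3 lower DEGs (CTGF, EGR1 and CYR61) and a median of -0.59. EGR1, a zinc finger factor of the early response, had 736, 828 and 814 adjusted read counts without CDDP and 286, 327 and 307 with it (-1.37 ± 0.13, adjusted p = 3.2e-12). CTGF (CCN2, chr6:131948176-131951372), a matricellular protein and target of YAP, went from 232, 221 and 195 to 37.5, 36.4 and 60.5 (-2.28 ± 0.19, adjusted p = 5.9e-14), and CYR61, its relative, from 863, 943 and 825 to 488, 405 and 403 (-1.02 ± 0.10, adjusted p = 8.9e-12). IER3, an early gene that limits cell death, went from 10266, 12316 and 10717 to 5868, 6333 and 6865 (-0.80 ± 0.06, adjusted p = 3.0e-14). The groups did not overlap in any of the 4. JUN, a subunit of AP-1, went the other way, from 610, 677 and 684 to 766, 807 and 756 (0.24 ± 0.08, adjusted p = 0.022), and its call was lost without the second 1 µM library (adjusted p = 0.0965) or the first untreated one (adjusted p = 0.14). FOSL2 (0.62) and BTG2 (0.82) were also higher. In olaparib alone, EGR1 stood at 318, 280.5 and 380 and CTGF at 19.2, 16.4 and 27.1, below the untreated libraries too.

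Many of these genes turned back between the doses. From 1 µM to 2.5 µM, 21 genes were higher (0.161%) and 31 lower (0.238%) as DEGs. By adjusted p alone, as for the lists below, 471 were higher (3.62%) and 435 lower (3.34%). Of the ISR list 18 genes were higher at 2.5 µM than at 1 µM by adjusted p and 1 was lower (median 0.40), and of the early gene list 20 were higher and none lower (median 0.61). The 1 µM libraries enter both steps, so the fall and the return are not independent. EGR1 had 664, 692 and 644 at 2.5 µM (1.12 above 1 µM, adjusted p = 6.8e-09), CYR61 824, 909 and 885 (1.02, adjusted p = 1.3e-10) and STC2 809.6, 787 and 859 (0.75, adjusted p = 6.3e-09), so that CYR61 and STC2 overlapped with their untreated libraries. EGR1 and CTGF, which had 88.0, 93.7 and 77.4, remained below theirs. JUN had 1570, 1606 and 1670 at 2.5 µM (1.06, adjusted p = 2.0e-14), more than in any untreated or 1 µM library. GADD45A, a stress gene that did not pass at 1 µM (119, 140.2 and 135 against 153, 131 and 131, adjusted p = 0.70), had 249, 225 and 218 at 2.5 µM (0.73, adjusted p = 4.0e-06). MALAT1, a nuclear long non-coding RNA, had 3616, 3232 and 3691 without CDDP, 3952, 3540 and 3732 at 1 µM and 2172, 2203 and 1996 at 2.5 µM (-0.82, adjusted p = 9.1e-15).

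Of the 65 small RNA DEGs, 18 moved by adjusted p back towards the untreated level from 1 µM to 2.5 µM and none moved further away. Of the other 82 higher DEGs, 3 passed back and 2 further up, and of the 91 lower DEGs, 11 passed back and 1 further down. Since these DEGs were picked on the 1 µM libraries, a step back is partly fixed by that choice.

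**Figure D4:**
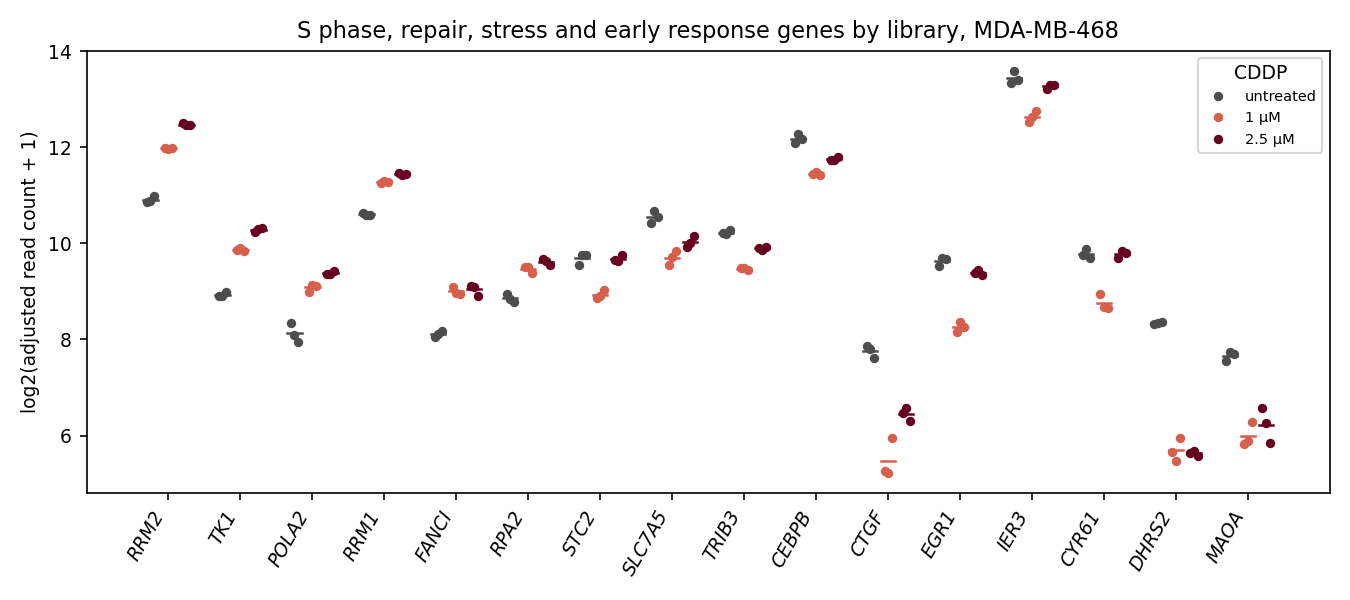
Log2 of the adjusted read count plus 1 (vertical axis) of 16 genes in each library, untreated (grey), 1 µM CDDP (red) and 2.5 µM CDDP (dark red), with 3 libraries each and a bar at their mean. RRM2 and TK1 step up at each dose, EGR1 and CYR61 fall at 1 µM and are higher again at 2.5 µM, and DHRS2 stays low at both doses.

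The same 1 µM dose moved ISR genes the other way when it was added to olaparib. There, 20 of the 27 genes rose by adjusted p and none fell (median 0.44), where over all genes 299 rose (2.3%) and 386 fell (2.97%). The effect was higher than without olaparib for 23 of the 27 by the interaction test, against 672 genes (5.16%) over all tested. CHAC1 had 42.2, 58.9 and 44.8 adjusted read counts in olaparib alone and 257, 226 and 259 with CDDP added. STC2 had 247, 236 and 274 in olaparib alone and 594, 536 and 566 with CDDP added. Olaparib alone held less of both than untreated cells, and the combination did not exceed the untreated level of 313 or more for CHAC1 and 746 or more for STC2. In OlaR cells 4 of the 27 rose and 3 fell, where over all genes 240 rose (1.84%) and 379 fell (2.91%). The effect was higher than in parental cells without olaparib for 14 and lower for 1, against 507 genes (3.9%) with a higher effect over all tested.

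Genes of growth factor and lipid signalling were lower in part. Over all genes tested, 9.41% were lower and 10.6% higher. Of 25 MAPK feedback genes, 8 were lower (32%) and none higher (median -0.26). PHLDA1, an early ERK target, went from 289, 293 and 282 to 144, 185 and 160.2 (-0.83 ± 0.11, adjusted p = 2.3e-08), ETV1, an ETS factor, fell by 1.36 and EGFR, which this line holds in many copies, by 0.26. Of 28 cholesterol synthesis genes, 11 were lower (39.3%) and 1 higher (3.57%, median -0.19). SCD, the stearoyl-CoA desaturase, went from 4270, 4129 and 4252 to 3008, 3078 and 2998 (-0.48 ± 0.05, adjusted p = 8.0e-11), and INSIG1, a sterol sensor, fell by 0.49. Of 29 NRF2 and glutathione genes, 8 were lower (27.6%) and 4 higher (13.8%). The heme oxygenase HMOX1 was lower by 0.82, and the cystine transporter SLC7A11 changed by -0.77 (379, 374 and 390.5 against 203, 245 and 223).

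Chaperone genes leaned upwards, with 10 of 26 heat shock genes higher and 3 lower (median 0.09). HSP90AA1, the inducible HSP90, went from 14805, 13857 and 14155 to 20033, 17845 and 20200 (0.44 ± 0.05, adjusted p = 3.4e-10), and HSPA8 rose by 0.45. Of 12 metallothionein and metal transport genes tested, 2 were higher (16.7%) and 1 lower (8.33%). MT1F, a metallothionein that binds metals through cysteines, went from 21.2, 26.6 and 43.1 to 69.4, 87.5 and 93.9 (1.48 ± 0.23, adjusted p = 1.8e-06), MT1X rose by 0.81 and their regulator MTF1 fell by 0.50. Of 44 interferon and MHC class I genes, 6 were higher (13.6%) and 2 lower (4.55%), against 10.6% and 9.41% over all genes tested. ISG15, a ubiquitin-like interferon target, went from 37.7, 42.7 and 28.4 to 91.9, 77.8 and 79.5 (1.19 ± 0.18, adjusted p = 1.8e-06), while IFIT1 did not pass without the third 1 µM library (1.02, adjusted p = 0.118) or the second untreated one (1.16, adjusted p = 0.0701).

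Most of the next lists held shares near the 10.6% higher and 9.41% lower over all genes tested, and their members are given singly and not as groups. Of 31 BCL2 family and death receptor genes, 3 were higher (9.68%) and 5 lower (16.1%). BAD, which promotes apoptosis, rose by 0.87, while MCL1 and CFLAR, which restrain it, fell by 0.43 and 0.53. NF-kB genes had 3 of 20 lower and none higher, with RELA lower by 0.37. TGF-beta, BMP and ID genes had 3 of 28 higher (10.7%) and 3 lower (10.7%). ID3, a helix-loop-helix inhibitor, went from 1173, 1153 and 1138 to 1793, 1741 and 1958 (0.66 ± 0.06, adjusted p = 2.0e-13), and its relative ID1 fell by 0.78. The call of BMP4 (-1.08, adjusted p = 0.011) was lost without the second (adjusted p = 0.0768) or the third 1 µM library (adjusted p = 0.0811). Hypoxia and glycolysis genes had 4 of 29 higher (13.8%) and 2 lower (6.9%). Of 20 clustered histone genes, 3 were lower, among them HIST1H2BK, from 448, 480 and 483 to 217, 231 and 245 (-1.03 ± 0.11, adjusted p = 9.2e-11).

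Among markers of basal epithelial lines, 3 of 19 were higher (15.8%), all as DEGs, and 6 lower (31.6%). Over all genes tested, 10.6% were higher and 9.41% lower. KRT5, the basal keratin, went from 258, 247 and 272 to 527, 556 and 499 (1.02 ± 0.07, adjusted p = 1.0e-15), and KRT16 rose by 1.01, while FOXC1, a basal transcription factor, fell by 0.63. Of 4 tested hormone receptor and HER2 markers, 3 fell: FOXA1 by 0.54, GATA3 by 0.23 and ESR1 by 0.73. The call of ESR1 was lost without the first 1 µM library (-0.44, adjusted p = 0.172). None of the 3 mesenchymal and 2 immune or endothelial markers tested passed.

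From a span of 5 kb upwards, the median was lower in each longer class of genes. With small RNA genes left out, the median log2 fold change was 0.06 for genes spanning 5 to 10 kb and -0.14 for those of 200 to 500 kb. It was -0.24 for the 133 genes over 500 kb. Of these, 21 passed downwards (15.8%) and 1 upwards (0.752%), against 9.41% and 10.6% over all genes tested. The 1 that passed upwards was SEMA3A, a repulsive guidance cue, whose libraries overlapped between the groups (1.09 ± 0.37, adjusted p = 0.031). From 1 µM to 2.5 µM the median of the longest class was again negative (-0.34, 16 lower and none higher). In OlaR cells 1 µM CDDP gave -0.41 (21 lower and none higher), and added to olaparib it gave -0.06 (1 lower and none higher). Over all genes tested, 3.34% were lower at the dose step, 2.91% in OlaR cells and 2.97% with olaparib. Of genes named for fragile sites or length, 8 of 27 tested were lower with 1 µM CDDP alone (29.6%) and none higher (median -0.40).

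TENM1 (chrX:124375903-125204312, 828 kb), a teneurin adhesion protein, had 153, 149 and 166 adjusted read counts without CDDP, 73.0, 43.9 and 85.6 at 1 µM and 28.2, 38.6 and 21.1 at 2.5 µM. It fell by 1.25 ± 0.19 at the first step (adjusted p = 2.1e-06) and by 1.17 at the second (adjusted p = 3.2e-05). SHANK2, a scaffold protein, fell from 158, 137 and 157 to 63.9, 80.8 and 66.5 (-1.10 ± 0.21, adjusted p = 5.4e-05). The other DEGs over 500 kb that were lower each lost their call without 1 library. FHIT, at the FRA3B fragile site and 1504 kb long, had 21.2, 12.8 and 23.1 against 6.33, 4.82 and 0, and changed by -1.57 (adjusted p = 0.103) without the third 1 µM library. PDE1C changed by -0.91 (adjusted p = 0.334) without the first 1 µM library, IMMP2L by -1.08 (adjusted p = 0.063) without the same library and SLC24A3 by -1.0 (adjusted p = 0.0526) without the second.

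**Figure D5:**
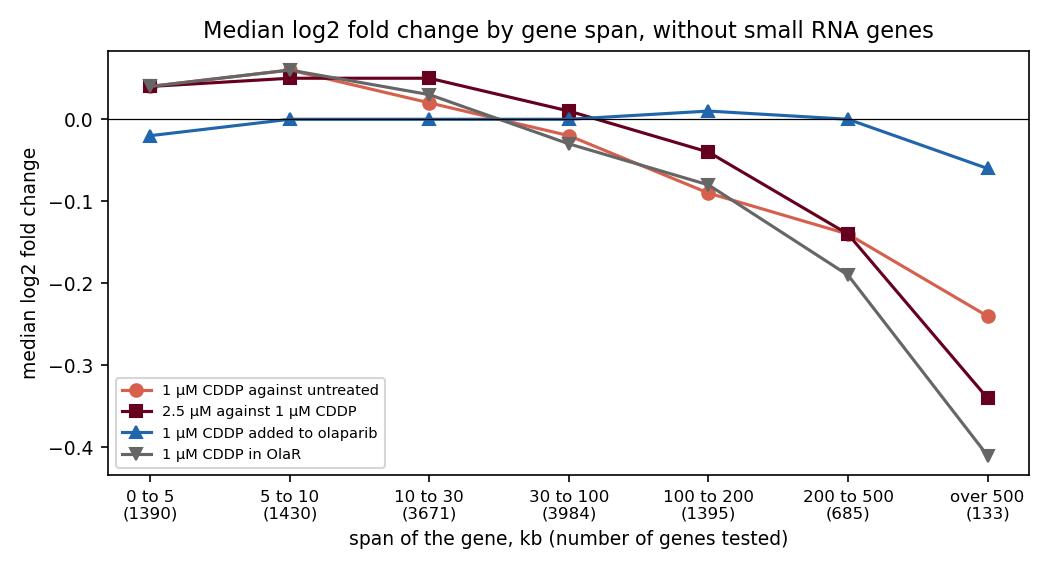
Median log2 fold change (vertical axis) of the genes tested, without small RNA genes, by the span of the gene in kb (horizontal axis, with the number of genes tested), for 1 µM CDDP against untreated cells, 2.5 µM against 1 µM CDDP, 1 µM CDDP added to olaparib and 1 µM CDDP in OlaR cells. In the class over 500 kb the medians are -0.24, -0.34, -0.06 and -0.41.

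Of 16 genes taken from the text of the study, which names some for its RNA-seq data and others for their proteins, 14 were tested. The study named them from other conditions of this series, some of which share the untreated libraries, so their changes are not independent evidence. With 1 µM CDDP, 5 were higher by adjusted p (35.7%), none was lower and 9 did not pass (median 0.24). Over all genes tested, 10.6% were higher and 9.41% lower. BRCA1 is given with the recombination genes, and RAD51AP1, a recombination factor, rose by 0.45 (adjusted p = 8.6e-06). PARP1 changed by 0.22 (adjusted p = 0.015, and 0.141 without the first 1 µM library or 0.0526 without the second untreated one). BIRC3, an inhibitor of apoptosis, had 33.3, 12.2 and 26.6 against 39.2, 40.4 and 27.3 (0.64, adjusted p = 0.069), and passed without the third 1 µM library (0.82, adjusted p = 0.0368) or the first untreated one (0.92, adjusted p = 0.0135). CD14 had 59.9, 86.6 and 53 against 31.5, 21.0 and 38.5 (-1.12, adjusted p = 0.067). With limma it passed at a pseudocount of 4 (adjusted p = 0.0182) and with only the groups compared (adjusted p = 0.0131). On the recovered reads it passed with edgeR under TMM (adjusted p = 0.00269) or DESeq2 size factors (adjusted p = 0.00262). DESeq2 gave an adjusted p of 0.00369. CD14 did not pass under the other alternatives. The ERK phosphatase DUSP6 (-0.84, adjusted p = 0.12, and 0.049 with DESeq2 on the recovered reads), the polymerases POLG (0.27, adjusted p = 0.53) and POLH (0.26, adjusted p = 0.14), the deacetylases SIRT1 (-0.16, adjusted p = 0.19), SIRT6 (-0.04, adjusted p = 0.89) and SIRT7 (0.08, adjusted p = 0.62) did not pass.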

How the data were processed

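Total RNA from 3 libraries per group was turned into QuantSeq 3′ mRNA libraries, whose cDNA starts at poly(A) stretches. The submitters' processing notes name CASAVA 1.8.2, FastQC, STAR, HTSeq, edgeR and hg38. The strand setting of the counting is not given in the sources used here. The deposited signal per gene is a read count that edgeR, run by the authors, had brought to 5585170 reads per library within each condition, at a dispersion of 0.01039. Whole reads were recovered for 100% of 1483380 values (relative tolerance 1e-06) and gave depths of 2070301 to 9268162 reads over the 27 MDA-MB-468 libraries. Replicates differed beyond sampling noise (chi-square per degree of freedom 2.64 to 3.97 within the 6 libraries).

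The main test was limma 3.58.1 with an intensity trend (R 4.3.3) on log2 of the value plus 1, fitted on all 27 MDA-MB-468 libraries in 9 groups, for genes with at least 10 in at least 3 libraries. P-values are two-sided and adjusted by Benjamini-Hochberg over the 13012 genes. Interactions used an adjusted p of at most 0.05 with no limit on the fold change. edgeR 4.0.16 and DESeq2 1.42.0 on the recovered reads, other filters, a pseudocount of 4, a replicate block and leaving out each library were alternatives. The script was tested on simulated data.

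The members and gene lists were chosen with earlier results of these data known. Named genes are the 10 DEGs that rose and the 10 that fell most with a mean of at least 20 and no overlap, up to 4 passing members of each list by smallest p, the genes the study names, the 3 genes of smallest p per interaction and per direction of the dose step, the 5 most expressed DEGs and DEGs over 500 kb. Other genes named, the small RNA classes and the E2F motif were picked after their values were seen. Of 27470 names, 25194 matched RefSeq GRCh38.p14 by symbol and 1224 by synonym. The mitochondrially encoded genes of the fixed list, 15 in all, were not in the table and gave no result. The authors' own comparison columns were not used. Results of a few genes under this rule are not reported here.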

Additional observations from a re-analysis of the deposited data

Results flagged for a closer look

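The effect of 1 µM CDDP differed between cells without olaparib and cells in olaparib, by the limma interaction at adjusted p, for 672 genes with a higher and 919 genes with a lower effect in olaparib. SCARNA22, the small Cajal body RNA printed with the report, had the difference with the smallest p. Its log2 fold change was 1.90 without and -0.32 with olaparib, a difference of -2.22 (adjusted p = 7.2e-21). CHAC1, the glutathione-degrading ISR gene, changed by -0.82 without and 2.34 with olaparib, a difference of 3.15 (adjusted p = 1.4e-18). STC2, the stress glycoprotein, changed by -0.76 without and 1.16 with olaparib, a difference of 1.92 (adjusted p = 6.9e-18).

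Between OlaR and parental cells, the 1 µM effect was higher in OlaR cells for 507 genes and lower for 688. RNU4ATAC of the minor spliceosome changed by 1.39 in parental and 0.08 in OlaR cells, a difference of -1.31 (adjusted p = 6.0e-13). SCARNA22 changed by 1.90 in parental and 0.50 in OlaR cells, a difference of -1.40 (adjusted p = 6.1e-13). NDUFB7, the complex I subunit, changed by 1.13 in parental and -0.12 in OlaR cells, a difference of -1.25 (adjusted p = 7.7e-13). The untreated parental libraries that enter every one of these differences held 606 to 676 adjusted read counts of SCARNA22, while olaparib alone held 1468 to 1843 and OlaR cells 448 to 618, and the part of these starting levels in the differences was not tested.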

How the results depend on the processing

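With the 3 libraries of each group left in, 1 µM CDDP against untreated cells gave 174 higher and 105 lower DEGs with edgeR and TMM, 175 and 103 with DESeq2, 118 and 72 with a pseudocount of 4, and 120 and 81 with a minimum of 20. When only the groups compared were fitted there were 122 higher and 83 lower. Without the filter on low values there were 234 higher and 99 lower (70.3% higher against 61.8%). Without a limit on the fold change there were 1374 and 1224, and with a log2 limit of 2 there were 25 and 13. Without the small RNA genes, an alternative added after seeing the data, 82 were higher.

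The step from 1 µM to 2.5 µM (21 higher and 31 lower) gave 51 and 91 without the filter, 35 and 50 with edgeR under either TMM or DESeq2 size factors, 471 and 435 without the fold limit, 3 and 2 at a log2 limit of 2, and 18 lower when only the groups compared were fitted. With an absolute difference of at least 1, the interaction with olaparib had 112 higher and 93 lower genes and that with OlaR cells 79 and 81. The cause of these shifts was not tested, beyond the thresholds themselves.

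Leaving out each library in turn gave 121 to 150 higher and 72 to 93 lower DEGs at 1 µM, 17 to 30 higher and 21 to 33 lower for the dose step, 551 to 664 higher and 784 to 901 lower for the interaction with olaparib, and 405 to 470 higher and 535 to 637 lower for that with OlaR cells. Among single genes, 5 values reversed in genes that did not pass. The ranges were -0.52 to 0.17 for KDR, which was above 0 without the second 1 µM (0.03), the second untreated (0.17) or the third untreated library (0.04), -0.0015 to 0.12 for GADD45A, and -0.12 to 0.017 for SIRT6, the outlying signs of both GADD45A and SIRT6 without the first 1 µM library. In addition 45 single-gene values lost and 2 gained a call.

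The replicate numbers did not pair the libraries, with correlations of same-numbered libraries after removing group means of -0.0081, 0.025 and -0.011. A replicate block gave 148 higher and 88 lower DEGs at 1 µM and 21 and 28 for the dose step. Depth limits genes with few reads, whose fold changes are imprecise, and the 3′ libraries measure no splicing and only part of the RNAs without poly(A) tails.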
